A study of Ovis aries with 8 samples.

Results

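The genes described here encode lysosomal hydrolases, their activators, lysosomal membrane proteins, a lysosomal sorting receptor and a pair of cystatins, the inhibitors of cysteine cathepsins. They were measured by sequencing of poly(A)-selected RNA from the liver of 8 lambs. Members were the rows of the deposited table whose symbol was on a list of 35, and 34 of the 27729 genes in the table matched. The symbol CTSD, for the aspartic protease cathepsin D, had no row of its own. A row with the symbol MUC6, for mucin 6, lists CTSD as an alias and held 0 to 1.09 TPM, and it was not used in place of cathepsin D. The groups compared were 4 lambs labelled RES and 4 lambs labelled ADL. The labels do not spell these names out. The series title sets the work in lambs whose feed was limited while they suckled and which were fattened afterwards. Lambs of both groups carry a slaughter weight of 27 kg in their labels, and each library came from a separate animal. Whole liver was sampled, so a value sums over all cell types present, and fewer cells of a type cannot be told apart from less RNA per cell.

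Lysosomes digest proteins, glycans, lipids and nucleic acids that arrive by endocytosis and autophagy. Most of their soluble enzymes are made in the endoplasmic reticulum, tagged with mannose 6-phosphate in the Golgi, carried by mannose 6-phosphate receptors and activated in the acidic lumen. In liver both hepatocytes and Kupffer cells, the resident macrophages, are rich in lysosomes. Cystatin C (CST3) is a secreted inhibitor of cysteine cathepsins, and cystatin B (CSTB) is an inhibitor of the same enzymes that stays mostly inside the cell.

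The libraries held 14514084 to 16182407 reads that had been assigned to a gene. Values are in TPM, a unit of transcript abundance: the share of all transcripts that a gene takes in a library, corrected for gene length. The test was limited to the 13437 genes that averaged 1 TPM or more, and all 34 members were among them. Hepatocyte markers summed to 189540 to 240312 TPM in RES lambs and to 225866 to 249970 TPM in ADL lambs, so the label of the tissue was borne out by its main cell type. In the deposited values the median gene was 0.09 log2 units higher in RES, and after division by size factors 0.01 higher. Where a difference of a member is quoted and its sign or its overlap depends on the scaling, it is therefore given in both forms. All members whose sign turned are listed at the end.

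Most of the group did not stand apart between RES and ADL livers. Limma, fitted to log2(TPM + 1) over all 13437 genes, called 0 genes (0.0%) at a Benjamini-Hochberg adjusted p under 0.05, and 1594 genes (11.9%) had an unadjusted p under 0.05. Of the members 4 of 34 (11.8%) had an unadjusted p under 0.05, a share next to that of all genes. They were CST3 and ARSA, lower in RES as were 1.5% of all genes at that level, and CSTB and GAA, higher in RES as were 10.4%. The balance of these background shares turned with the scaling: after size-factor scaling 4.25% of all genes were lower and 3.4% higher at that level, and the same 4 members were there too. The members' adjusted p lay between 0.395 and 0.987. The median difference, RES minus ADL, was 0.04 log2 units over the 34 members and 0.09 over all genes tested. After size-factor scaling these medians were -0.06 and 0.01, with 22 of the 34 members (64.7%) below 0, where 48.4% of all genes were. Of the 34 differences, 24 were smaller than 0.20 log2 units in either direction, and the limma SE of a member was 0.12 in the median.

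**Figure D1:**
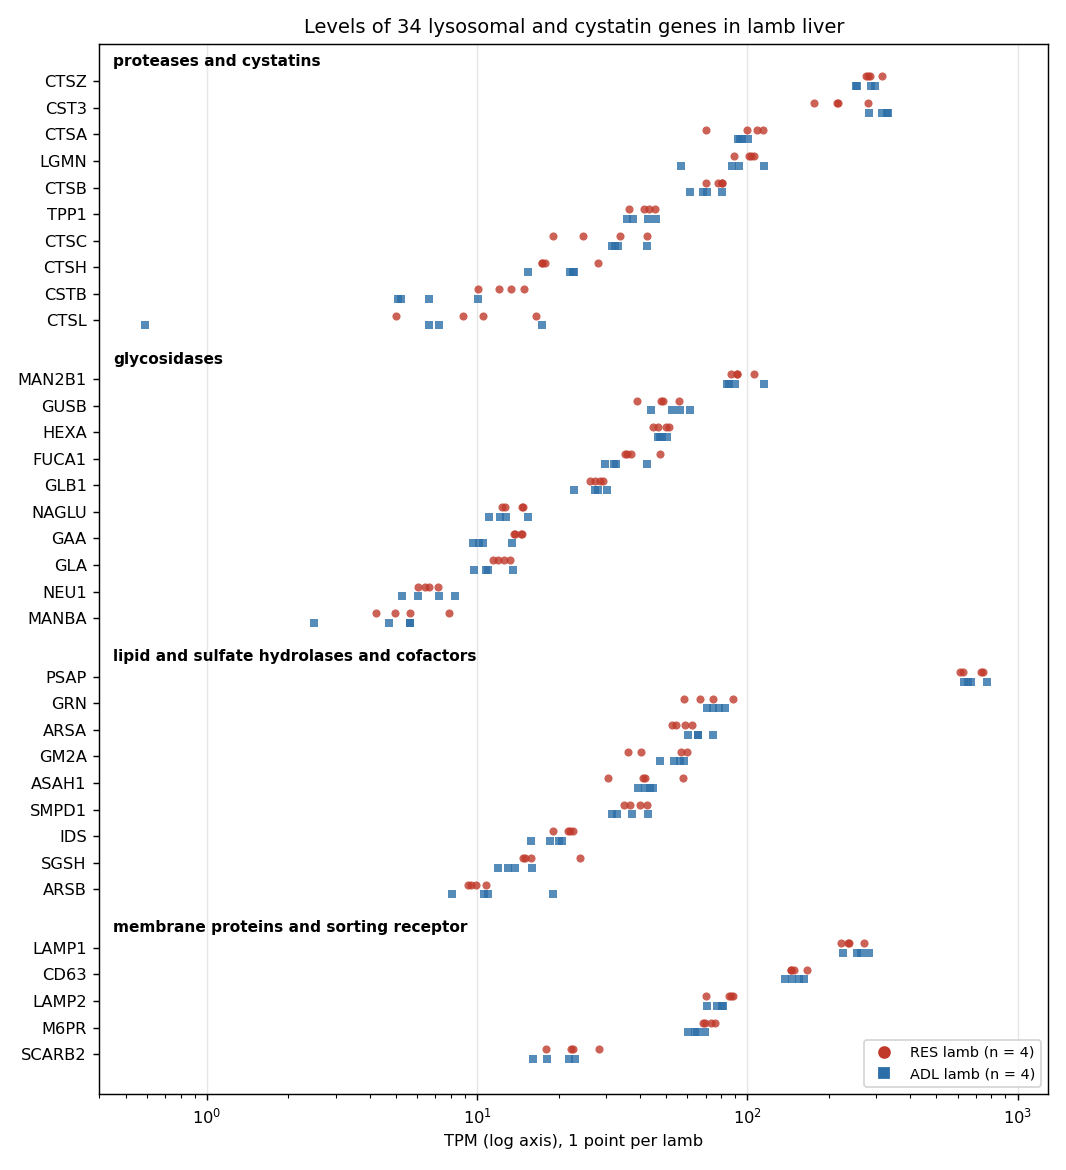
TPM of each of the 34 genes on a log axis, 1 point per lamb, with RES lambs as circles above and ADL lambs as squares below, ordered by mean level within the 4 role groups. PSAP stands highest, at 612 to 768 TPM, and the widest spread between lambs is that of CTSL, at 0.591 to 17.4 TPM.

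Cystatin C was lower in RES livers. Its difference was known from earlier results of these data, so the values of CST3 are a description. CST3 held 279, 216, 177 and 214 TPM in RES lambs 1 to 4, against 329, 282, 332 and 313 TPM in ADL lambs 1 to 4. Every RES lamb lay below every ADL lamb, with RES lamb 1 just under ADL lamb 2. Groups arranged in this way were seen for 0.781% of all genes tested in the deposited values and for 2.41% after size-factor scaling, where CST3 was still so arranged. The means were 222 ± 42.4 TPM in RES and 314 ± 23.2 TPM in ADL (SD, n = 4 each, here and for all means). The limma difference was -0.52 ± 0.13 (SE, adjusted p = 0.395), and -0.62 ± 0.14 after size-factor scaling. With 1 lamb left out it ranged from -0.63, without RES lamb 1, to -0.41, without RES lamb 3. In the authors' deposited table CST3 has a shrunken log2 fold change of -0.52 ± 0.13 (SE, adjusted p = 0.028). The authors' deposited table calls 13 of 5627 genes (0.231%) at an adjusted p under 0.05, with 8 (0.142%) lower in RES, and CST3 is the 1 member among them, of 27 members with an adjusted p.

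The authors' annotation places CST3 at 41232932 to 41236870 on chromosome 13, in a genome build that the sources used here do not name. Other cystatin genes are annotated around it. Of the 8 rows on chromosome 13 described as cystatins, 5 had 0 reads in all 8 lambs, CSTL1 had 1 read in all, and CST7, cystatin F, held 0.289 to 0.629 TPM. CST3 itself held 1087 to 2202 reads per lamb. 

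Cystatin B stood higher in RES livers, short of the adjusted threshold. CSTB held 12.1, 13.3, 14.9 and 10.1 TPM in RES lambs 1 to 4, against 6.63, 10.1, 5.24 and 5.11 TPM in ADL lambs 1 to 4. The groups met at 1 point, where RES lamb 4 lay just under ADL lamb 2. Its means were 12.6 ± 2.05 TPM in RES and 6.77 ± 2.32 TPM in ADL, a ratio of 1.86. The limma difference was 0.84 ± 0.20 (SE, adjusted p = 0.395), the largest of the 34, and it was 0.75 with size-factor scaling and 0.83 with voom on recovered reads. It rested on few reads, 37 to 58 per RES lamb and 21 to 39 per ADL lamb, so its counting noise is larger than that of the abundant members. The authors' deposited table gives CSTB a log2 fold change of 0.47 ± 0.17 (SE, p = 0.00746) and no adjusted p. The gene is annotated on chromosome 1 from 261722016 to 261726199. A newer RefSeq gene table lists the same identifier as LOC101123010, so its name is less certain than that of the other members.

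**Figure D2:**
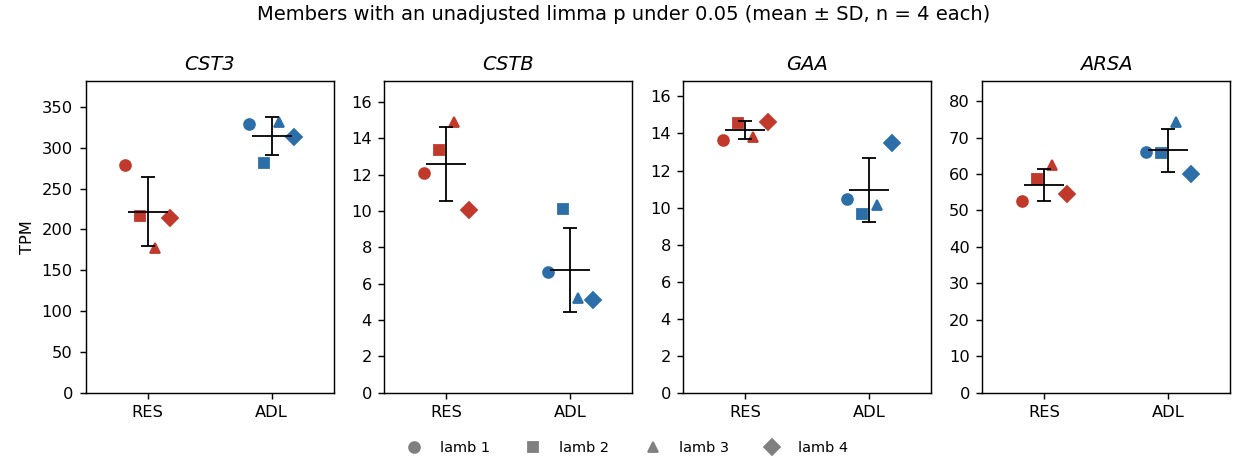
TPM of CST3, CSTB, GAA and ARSA in each lamb, RES left of ADL, with bars for the mean ± SD (n = 4 each) and a symbol shape for each lamb number. Every RES lamb lies below every ADL lamb for CST3 and above every ADL lamb for GAA, and CSTB and ARSA each overlap by a single lamb or so at the boundary.

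The cathepsins of the set differed in direction, none of them passed the test, and whether their differences were unlike that of CST3 was not tested. Cathepsin B (CTSB), an endopeptidase and carboxydipeptidase, held 80.7, 78.0, 80.3 and 70.0 TPM in RES lambs 1 to 4, against 61.3, 71.1, 80.6 and 68.3 TPM in ADL lambs 1 to 4. Its groups overlapped over most of their range, and its difference was 0.14 ± 0.10 (adjusted p = 0.564), or 0.04 ± 0.11 after scaling. Cathepsin Z (CTSZ), a carboxypeptidase and the most abundant of the member proteases, held 314, 285, 278 and 275 TPM in RES lambs, against 252, 254, 286 and 296 TPM in ADL lambs. Its difference of 0.08 ± 0.09 turned to -0.02 after size-factor scaling. Cathepsin C (CTSC), which activates granule serine proteases, varied far more in RES, with 24.5, 33.8, 19.2 and 42.5 TPM, against 31.5, 32.5, 42.7 and 33.2 TPM in ADL. RES lambs lay both at the bottom and near the top of its range, and its difference was -0.27 ± 0.22 (adjusted p = 0.62), or -0.37 ± 0.22 after scaling. It was -0.079 without RES lamb 3, -0.17 without ADL lamb 3 and -0.45 without RES lamb 4.

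In the ratio of cystatin C to cathepsin transcripts, a factor that scales a whole library cancels. A trend of a library with gene length does not cancel. CST3 is 790 nt long, against 1453 nt for CTSZ, 4842 nt for CTSB and 9668 nt for CTSC. CST3 over the sum of CTSB, CTSC, CTSH, CTSL and CTSZ was 0.617, 0.502, 0.436 and 0.518 in RES lambs 1 to 4, against 0.880, 0.740, 0.757 and 0.728 in ADL lambs 1 to 4. CTSZ was the largest term of that sum in every lamb. The sum leaves out measured cathepsins that are not members, such as CTSF, CTSK, CTSO and CTSS. The highest RES ratio lay under the lowest ADL ratio, as it did for CST3 alone. The ratio averaged 0.518 ± 0.0749 in RES and 0.776 ± 0.0701 in ADL. It was chosen after the values were seen, and CST3 was chosen for its difference, so no test is given.

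**Figure D3:**
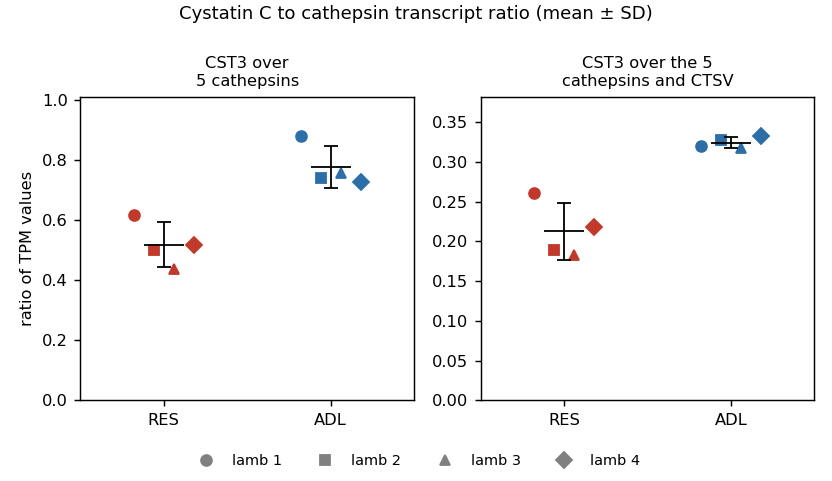
Ratio of CST3 TPM to the summed TPM of CTSB, CTSC, CTSH, CTSL and CTSZ (left) and to the same sum with CTSV added (right), 1 point per lamb, RES left of ADL, with bars for the mean ± SD (n = 4 each). With CTSV the ratio is 0.213 ± 0.0359 in RES and 0.324 ± 0.0068 in ADL, and in both panels every RES lamb lies below every ADL lamb.

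Cathepsin L (CTSL), a broad endopeptidase, had the most uneven values of the set. CTSL held 5.002, 16.5, 10.5 and 8.90 TPM in RES lambs 1 to 4, against 6.66, 0.591, 7.25 and 17.4 TPM in ADL lambs 1 to 4. ADL lamb 2 had 6 reads and ADL lamb 4 had 188, so the ADL lambs spanned the RES lambs on both sides. Its difference of 0.67 ± 0.66 (adjusted p = 0.669) became -0.01 without ADL lamb 2. A second row, annotated as cathepsin V (CTSV) and singled out after its values were seen, held far more: 617, 716, 564 and 568 TPM in RES lambs, against 654, 480, 608 and 513 TPM in ADL lambs. In human the cathepsins L and V are close relatives. CTSV is annotated on chromosome 2 from 29199414 to 29205028 and CTSL on the same chromosome from 31809575 to 31814846. The sources used here do not say how reads that match near-identical genes were counted, so CTSL and CTSV are uncertain as single genes. The groups overlapped in CTSV, with a difference of 0.13 ± 0.13 (adjusted p = 0.659).

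The other proteases overlapped between the groups. Legumain (LGMN), an asparaginyl endopeptidase that trims cathepsins, averaged 99.7 ± 7.35 TPM in RES and 88.1 ± 24.0 TPM in ADL. Its ADL spread came from ADL lamb 1 at 56.7 TPM and ADL lamb 4 at 115 TPM. Cathepsin A (CTSA), a carboxypeptidase that protects the sialidase NEU1 and the galactosidase GLB1, averaged 98.2 ± 19.5 TPM in RES and 95.4 ± 3.62 TPM in ADL, and RES lamb 4 was the low library at 70.3 TPM. The tripeptidyl peptidase TPP1 averaged 41.7 ± 3.89 TPM in RES and 40.5 ± 4.56 TPM in ADL. Cathepsin H (CTSH), an aminopeptidase, averaged 20.1 ± 5.22 TPM in RES and 20.7 ± 3.55 TPM in ADL. Over the 10 measured proteases and cystatins the median difference was 0.06, and -0.04 after scaling, with the extremes set by the cystatins, CST3 at -0.52 and CSTB at 0.84.

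Among the 10 glycosidases, acid alpha-glucosidase stood higher in RES, short of the adjusted threshold, and the rest overlapped. GAA, the lysosomal enzyme that breaks down glycogen, held 13.7, 14.6, 13.8 and 14.6 TPM in RES lambs 1 to 4, against 10.5, 9.66, 10.2 and 13.5 TPM in ADL lambs 1 to 4. The RES lambs were tightly grouped and lay above all ADL lambs, with ADL lamb 4 just beneath them. Groups lay so for 6.61% of all genes in the deposited values, and after size-factor scaling, where 2.22% of all genes lay so, the GAA groups overlapped. Means were 14.2 ± 0.495 TPM in RES and 10.95 ± 1.73 TPM in ADL. Its limma difference was 0.35 ± 0.11 (adjusted p = 0.395), or 0.26 ± 0.10 after scaling. With the trend of each library with gene length removed it was 0.23 and its unadjusted p, at 0.0571, was no longer under 0.05. GAA is among the longer genes of the set, and the median difference of all genes was 0.04 over the shortest 2689 genes and 0.13 over the longest 2688.

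The groups overlapped in every other glycosidase. FUCA1, the alpha-fucosidase, held 35.3, 35.9, 47.3 and 36.9 TPM in RES lambs, against 29.6, 32.2, 32.5 and 42.3 TPM in ADL lambs, so 1 lamb of each group stood high. GUSB, the beta-glucuronidase, held 55.8, 48.5, 47.9 and 39.0 TPM in RES lambs, against 52.7, 44.1, 61.2 and 56.3 TPM in ADL lambs. GLA, alpha-galactosidase A, held 13.2, 11.9, 12.6 and 11.5 TPM in RES lambs, against 10.7, 10.99, 13.6 and 9.70 TPM in ADL lambs. In each of these 3 genes the groups overlapped, and the differences were 0.18 ± 0.13, -0.16 ± 0.13 and 0.12 ± 0.11 in that order, with adjusted p of 0.571, 0.612 and 0.629. MAN2B1, the alpha-mannosidase and the most abundant glycosidase, held 91.8, 91.3, 106 and 86.7 TPM in RES lambs, against 89.7, 85.5, 115 and 84.0 TPM in ADL lambs. Lamb 3 was the highest in both groups, and the difference of MAN2B1 was 0.01 ± 0.12, or -0.088 after scaling.

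HEXA, the alpha subunit of beta-hexosaminidase A, was among the steadiest members, at 48.1 ± 2.99 TPM in RES and 48.2 ± 1.66 TPM in ADL. Its difference was -0.01 ± 0.08. GLB1, the beta-galactosidase, averaged 27.8 ± 1.36 TPM in RES and 27.2 ± 3.15 TPM in ADL. NEU1 averaged 6.57 ± 0.464 TPM in RES and 6.70 ± 1.34 TPM in ADL. These 2 enzymes and CTSA form a complex, and NEU1 transcripts were 0.0701 ± 0.0217 of those of CTSA in RES and 0.0702 ± 0.0138 in ADL. NAGLU, which acts on heparan sulfate, averaged 13.6 ± 1.296 TPM in RES and 12.8 ± 1.82 TPM in ADL. MANBA, the beta-mannosidase and the lowest member, averaged 5.67 ± 1.56 TPM in RES and 4.62 ± 1.48 TPM in ADL. Over the 10 glycosidases the median difference was 0.06, and -0.04 after scaling.

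**Figure D4:**
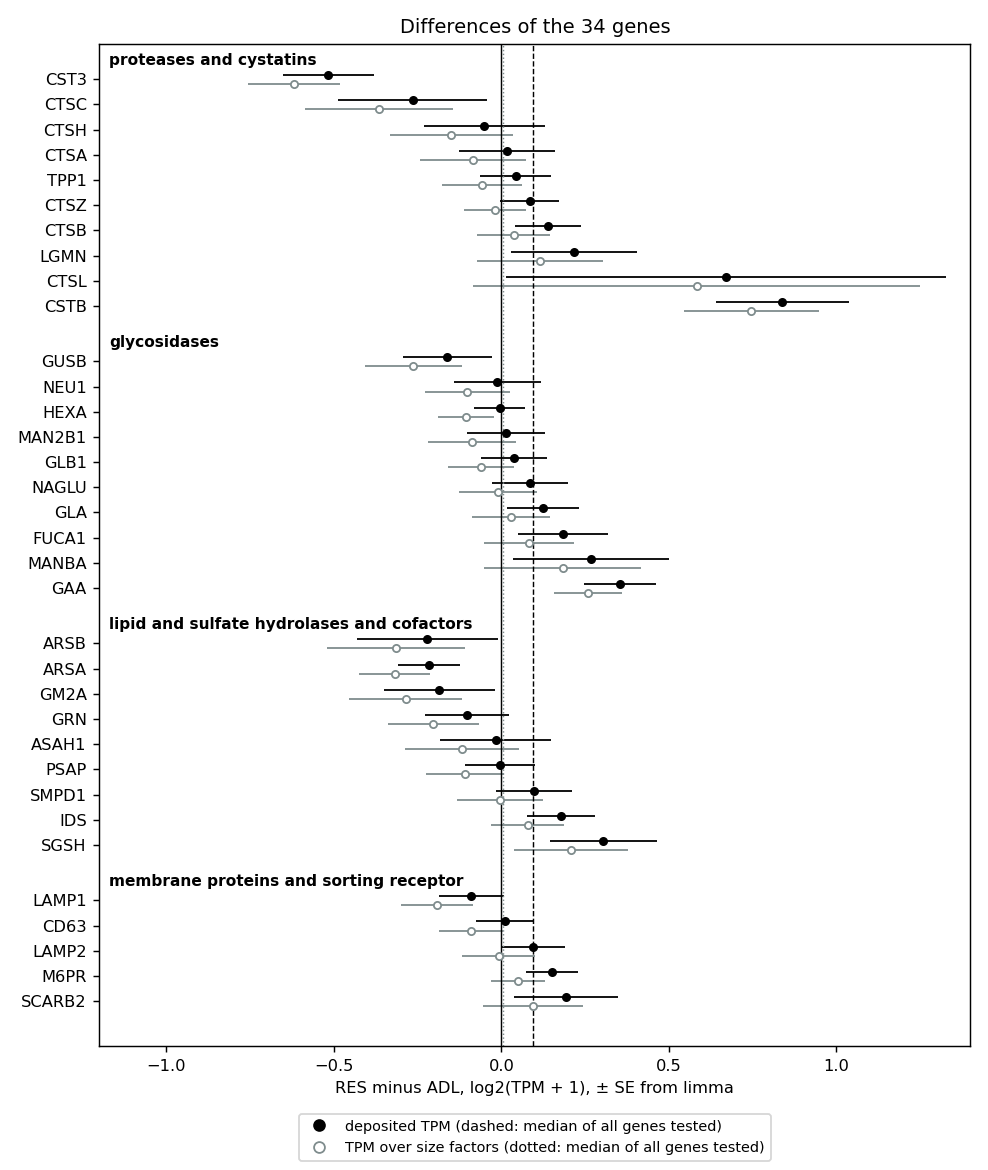
Difference of each of the 34 genes, RES minus ADL on log2(TPM + 1), ± limma SE, for the deposited TPM (filled) and for TPM over size factors (open), with vertical lines at the median of all genes tested. CST3 at -0.52 and CSTB at 0.84 lie at opposite ends, CTSL has the widest error, and most other genes lie within 0.2 of 0.

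Among enzymes and cofactors of lipid and sulfate breakdown, arylsulfatase A stood lower in RES, short of the adjusted threshold. ARSA, which removes the sulfate of sulfatide, held 52.6, 58.5, 62.4 and 54.6 TPM in RES lambs 1 to 4, against 65.9, 65.7, 74.3 and 60.0 TPM in ADL lambs 1 to 4. RES lambs 1, 2 and 4 lay below all ADL lambs, and RES lamb 3 lay above ADL lamb 4. Means were 57.0 ± 4.34 TPM in RES and 66.5 ± 5.90 TPM in ADL, a difference of -0.22 ± 0.09 (adjusted p = 0.415), or -0.32 ± 0.11 after scaling. Its unadjusted p was 0.0425, and it was over 0.05 when any of RES lambs 1, 2 and 4 or ADL lambs 1, 2 and 3 was left out. In the authors' deposited table ARSA has -0.29 ± 0.11 (SE, adjusted p = 0.291) and GAA has 0.24 ± 0.11 (SE, adjusted p = 0.456).

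The heparan sulfate sulfatases SGSH and IDS had higher means in RES. SGSH held 14.7, 24.0, 15.8 and 15.0 TPM in RES lambs, against 15.9, 11.9, 13.8 and 12.98 TPM in ADL lambs. The high value was RES lamb 2 alone, without which the difference was 0.15. IDS held 19.0, 21.6, 22.02 and 22.7 TPM in RES lambs, against 20.03, 15.9, 20.6 and 18.7 TPM in ADL lambs. Both overlapped, with 0.30 ± 0.16 (adjusted p = 0.46) for SGSH and 0.18 ± 0.10 (adjusted p = 0.487) for IDS. SGSH, from 51363124 to 51370239, and GAA, from 51423414 to 51439479, are annotated close together on chromosome 11. ARSB, the sulfatase of dermatan sulfate, averaged 9.84 ± 0.679 TPM in RES and 12.2 ± 4.79 TPM in ADL, and the ADL mean was carried by ADL lamb 2 at 19.1 TPM. Without that lamb its difference of -0.22 became 0.0033.

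Prosaposin (PSAP), the precursor of the saposins that present sphingolipids to their hydrolases, was the most abundant member. PSAP held 731, 630, 745 and 612 TPM in RES lambs, against 671, 652, 768 and 633 TPM in ADL lambs. It took 24.6 ± 1.302% of the summed TPM of the 34 genes in RES and 24.1 ± 1.25% in ADL, and its difference was -0.01 ± 0.10. GRN, progranulin, a secreted protein processed in lysosomes, held 88.6, 66.7, 74.3 and 58.5 TPM in RES lambs, against 78.6, 70.7, 82.4 and 74.7 TPM in ADL lambs. GM2A, the activator that presents ganglioside GM2 to hexosaminidase A, held 56.8, 40.3, 59.7 and 36.1 TPM in RES lambs, against 53.7, 56.1, 47.5 and 58.2 TPM in ADL lambs. In both genes RES lambs lay at both ends of the range, with RES lamb 4 lowest. ASAH1, acid ceramidase, showed the same width in RES, at 42.7 ± 11.2 TPM in RES and 42.3 ± 2.27 TPM in ADL. SMPD1, acid sphingomyelinase, averaged 38.6 ± 3.42 TPM in RES and 36.2 ± 5.17 TPM in ADL. Over the 9 genes the median difference was -0.02, and -0.12 after scaling.

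The membrane proteins and the sorting receptor had no member with an unadjusted p under 0.05. LAMP1, a heavily glycosylated protein of the lysosomal membrane, held 270, 237, 235 and 222 TPM in RES lambs, against 255, 226, 282 and 264 TPM in ADL lambs. Its relative LAMP2, which also serves as a receptor in chaperone-mediated autophagy, held 88.4, 87.0, 85.3 and 70.4 TPM in RES lambs, against 80.5, 70.7, 80.9 and 77.0 TPM in ADL lambs. Each overlapped on its own, with -0.09 ± 0.10 for LAMP1 and 0.09 ± 0.10 for LAMP2. After scaling these differences were -0.19 and -0.0076. The LAMP1 to LAMP2 ratio was 2.92 ± 0.216 in RES and 3.32 ± 0.162 in ADL, and the highest RES ratio, 3.16, lay just below the lowest ADL ratio, 3.17. This ratio was computed after the values were seen and is not tested. A trend of a library with gene length does not cancel in it, since LAMP1 is 2603 nt long and LAMP2 8612 nt.

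M6PR, the cation-dependent mannose 6-phosphate receptor that delivers hydrolases, held 75.8, 73.5, 69.9 and 68.4 TPM in RES lambs, against 64.8, 60.3, 63.8 and 69.9 TPM in ADL lambs. ADL lamb 4 alone reached the RES range, and the difference was 0.15 ± 0.08 (adjusted p = 0.459), or 0.05 after scaling. SCARB2, which carries glucocerebrosidase to lysosomes, held 22.3, 18.03, 28.3 and 22.6 TPM in RES lambs, against 21.9, 18.2, 16.03 and 23.1 TPM in ADL lambs. The tetraspanin CD63 held 146, 149, 166 and 145 TPM in RES lambs, against 138, 155, 162 and 147 TPM in ADL lambs. Both overlapped, with 0.19 ± 0.15 for SCARB2 and 0.01 ± 0.09 for CD63. After scaling these differences were 0.094 and -0.092.

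As a whole the transcripts of the set took a like share in both groups. The 34 genes summed to 2987, 2718, 2831 and 2523 TPM in RES lambs 1 to 4, against 2746, 2665, 3048 and 2837 TPM in ADL lambs 1 to 4. The groups overlapped, at 2765 ± 195 TPM in RES and 2824 ± 165 TPM in ADL. Within that sum CST3 made up 8.01 ± 1.31% in RES and 11.1 ± 0.614% in ADL. The order of the most abundant genes was PSAP, CTSZ, LAMP1, CST3 and CD63 in RES and PSAP, CST3, CTSZ, LAMP1 and CD63 in ADL. CST3 lay below CTSZ in each RES lamb and above it in each ADL lamb: CST3 over CTSZ was 0.889, 0.759, 0.636 and 0.781 in RES lambs 1 to 4, against 1.31, 1.11, 1.16 and 1.06 in ADL lambs 1 to 4. Of the 8 lambs, RES lamb 4 was the lowest for 9 members (26.5%, against 10.5% of all genes), ADL lamb 1 for 8 (23.5%, against 20.8%) and ADL lamb 2 for 7 (20.6%, against 12.7%). The highest lamb was RES lamb 1 for 9 members (26.5%, against 19.1% of all genes) and ADL lamb 3 for 10 (29.4%, against 6.86%).

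Macrophages are rich in lysosomes, so their markers are given beside these genes. Of the 20 macrophage and Kupffer cell markers that passed the filter, 15 were lower in RES, where 29.0% of all genes were. After scaling 18 were lower, where 48.4% of all genes were. None of the 21 in the table was at 0 in all lambs. Their summed level was 1064 to 1891 TPM in RES lambs, against 1324 to 1579 TPM in ADL lambs, so the RES lambs spread on both sides of the ADL lambs. CD68, a lysosomal glycoprotein of macrophages, averaged 40.3 ± 9.68 TPM in RES and 46.0 ± 5.06 TPM in ADL, and CSF1R, the receptor for their growth factor, averaged 34.4 ± 7.98 TPM in RES and 34.1 ± 1.84 TPM in ADL. The marker list stood highest in RES lamb 1 and lowest in RES lamb 4, and CST3 also stood highest of the RES lambs in RES lamb 1, but lowest in RES lamb 3. CD163 was not analysed here. The part of macrophage RNA in the difference of CST3 was not tested. Hepatocyte markers also stood lower in RES relative to all genes, with a median difference of -0.06 in 20 genes, or -0.17 after scaling. Of the 20, 13 were lower and 7 higher in RES, both before and after scaling, where 29.0% and 48.4% of all genes were lower. In the deposited values the 20 differences ran from -0.36 to 2.26 log2 units, so the largest was higher in RES. At an unadjusted p under 0.05, 3 were lower and 1 higher, where 1.5% and 10.4% of all genes were. After scaling 5 were lower and 0 higher at that level, where 4.25% and 3.4% of all genes were. In 3 (APOH, TF and F2) every RES lamb lay below every ADL lamb, as in 0.781% of all genes. Each of these 3 passes an adjusted p of 0.05 in the authors' deposited table. Of 13 stellate cell and fibroblast markers 7 were lower in RES, or 11 after scaling, with a median of -0.10, or -0.20 after scaling. Lower in RES were also 6 of 12 endothelial markers (8 after scaling) and 4 of 9 lymphocyte markers (5 after scaling). The same held for 0 of 7 bile duct markers (2 after scaling) and 2 of 5 neutrophil and blood markers (2 after scaling). Of all genes 29.0% were lower, or 48.4% after scaling. The part of these cell types in the difference of CST3 was not tested.

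**Figure D5:**
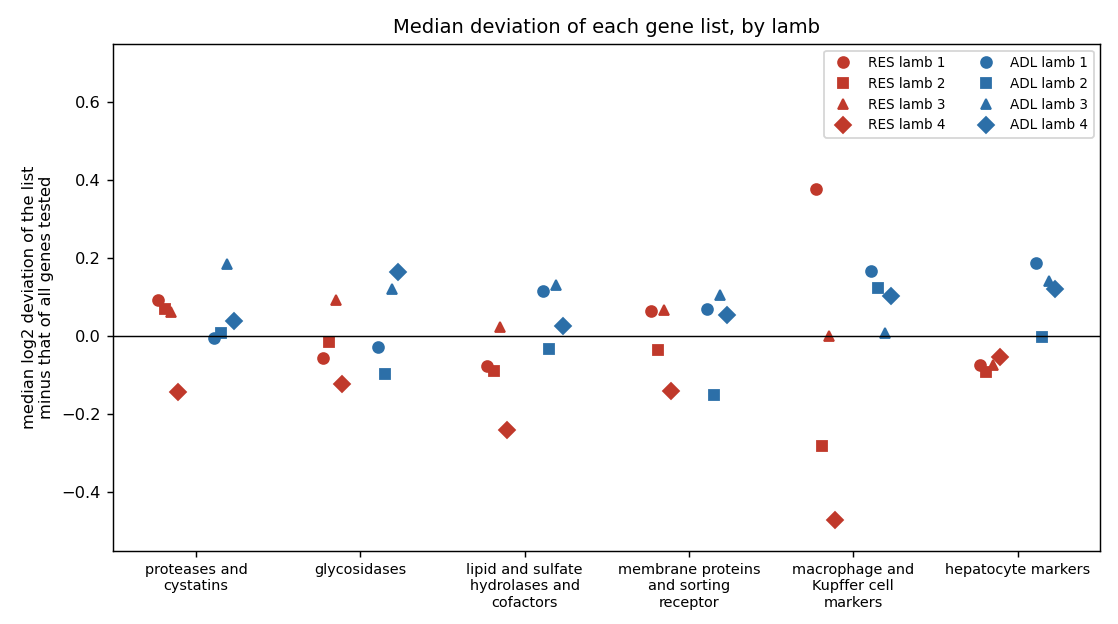
Median log2 deviation of each gene list in each lamb from the gene means over 8 lambs, minus the same median over all genes tested; RES lambs stand left of ADL lambs and the shape gives the lamb number. RES lamb 4 lies lowest in the proteases, in the glycosidases, in the lipid and sulfate group and in the macrophage markers, which span -0.47 to 0.38 among RES lambs.

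Other genes of the lysosomal system, from lists written for this comparison, gave a similar picture, with 0 called by limma at an adjusted p under 0.05. The 35 genes listed as other lysosomal hydrolases include HGSNAT, an acetyltransferase, and TPP2, a mainly cytosolic peptidase. Of the 35, 1 was higher and 1 lower at an unadjusted p under 0.05 (5.71%, against 11.9% of all genes). After size-factor scaling 0 were higher and 4 lower, where 3.4% and 4.25% of all genes were. The one lower under both scalings was ACP5, the tartrate-resistant acid phosphatase of macrophages and osteoclasts. ACP5 averaged 56.2 ± 8.11 TPM in RES and 81.8 ± 4.75 TPM in ADL, and its difference was also already known. In the authors' deposited table its log2 fold change is -0.57 ± 0.11 (SE, adjusted p = 0.00054). Lower after scaling were also the cysteine protease cathepsin K (CTSK, -0.28 ± 0.11), the acid nuclease DNASE2 (-0.31 ± 0.13) and the iduronidase IDUA (-0.24 ± 0.09), named after their values were seen. The carboxypeptidase SCPEP1 averaged 109 ± 18.3 TPM in RES and 91.6 ± 7.09 TPM in ADL.

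Of 22 measured membrane proteins and transporters outside the set, 2 were higher at an unadjusted p under 0.05 (9.09%, against 10.4% of all genes) and 0 lower. After scaling 1 was higher and 0 lower at that level, where 3.4% and 4.25% of all genes were. NPC1, which exports cholesterol from lysosomes, held 4.97, 7.81, 6.85 and 11.1 TPM in RES lambs, against 2.51, 5.23, 3.602 and 4.59 TPM in ADL lambs. RES lamb 1 alone fell within the ADL range, and the difference was 0.79 ± 0.24 (adjusted p = 0.395), or 0.70 after scaling. CD164, a sialomucin of endosomes and lysosomes, averaged 287 ± 4.997 TPM in RES and 257 ± 4.61 TPM in ADL, 0.16 ± 0.07 in the deposited values and 0.05 after scaling. LMBRD1, which takes part in the export of cobalamin, averaged 51.7 ± 3.80 TPM in RES and 46.0 ± 7.21 TPM in ADL.

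The V-ATPase, the pump that acidifies lysosomes, had 16 of its 18 measured genes higher in RES in the deposited values and 12 after scaling. The share lower in RES was thus 11.1%, against 29.0% of all genes, and 33.3% after scaling, against 48.4% of all genes. At an unadjusted p under 0.05, 3 were higher (16.7%, against 10.4% of all genes) and 0 lower. The 3 were ATP6V1E1 (36.5 ± 2.51 TPM in RES, 30.5 ± 3.66 in ADL), ATP6V0D1 (46.0 ± 4.97 and 36.3 ± 7.13) and ATP6V0E2 (10.9 ± 0.994 and 8.69 ± 1.84). After scaling 0 were higher and 1 lower at that level, where 3.4% and 4.25% of all genes were. Of 27 measured genes of lysosomal sorting and control, 1 was higher at an unadjusted p under 0.05 (3.7%, against 10.4% of all genes). After scaling 0 were higher, where 3.4% of all genes were. The 1 gene was the adaptor subunit AP1G1, at 25.8 ± 1.61 TPM in RES and 21.9 ± 1.49 TPM in ADL. LAMTOR5, a subunit of the Ragulator complex, averaged 70.2 ± 6.51 TPM in RES and 60.0 ± 5.66 TPM in ADL. The transcription factor MITF averaged 2.24 ± 0.199 TPM in RES and 1.83 ± 0.11 TPM in ADL. Of 9 further cystatin superfamily genes, 5 passed the filter, all with a difference below 0, where 29.0% of all genes had one (48.4% after scaling), and 0 at an unadjusted p under 0.05. They include the abundant plasma proteins fetuin-A (AHSG), at 12122 ± 3238.5 TPM in RES and 14677 ± 1885 TPM in ADL, and histidine-rich glycoprotein (HRG), at 1501 ± 257 TPM in RES and 1850 ± 469 TPM in ADL. Fetuin-B (FETUB) averaged 1506 ± 396 TPM in RES and 1628 ± 318 TPM in ADL. AHSG is also among the hepatocyte markers above, so these lists overlap.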

How the data were processed

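Per the labels' protocols, poly(A) RNA of liver was sequenced as read pairs. Tools listed in the submitters' processing notes are DESeq2 1.12.4 and bcl2fastq 1.8.4. The sources used here name no aligner, read counter, strand setting or build. Per the file headers, the authors' TPM values rest on read counts per gene and on a length for each gene. Beside them the authors deposited DESeq2 results: a mean normalized count (a signal over size factors), log2 fold changes with SE, a Wald score and p-values, raw and adjusted. Quoted fold changes are shrunken and run RES over ADL.

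The product of TPM and gene length, divided per library by its lowest nonzero value, was whole for 100.0% of values within 1e-06, so depth is known. RES minus ADL was fitted with limma 3.58.1 (R 4.3.3, eBayes with trend) to log2(TPM + 1) of genes averaging 1 TPM or more. P-values were adjusted over these genes (Benjamini-Hochberg, threshold 0.05). The same fit was also run on simulated reads drawn without a trend with gene length. That run is no check on such a trend, and no result of it is used here. Differences on log2(TPM + 1) understate those of low genes. Of 215 symbols in other lists 209 matched, 6 through a RefSeq table and 4 through an alias. P-values set the difference of the groups against the spread between lambs within a group, which eBayes moderates over all genes.

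The members and lists were chosen with earlier results of these data known. Per-lamb values are given for the cystatins, for the 4 members per role group with the smallest unadjusted p, for the 2 most abundant per group and for any with a deposited adjusted p under 0.1. From each pathway list the 3 genes with the smallest unadjusted p are named, except 1 hydrolase that is not reported here, and CD68, CD163 and CSF1R from the macrophage list. CTSL, CTSV, ARSB, CSTL1, CST7, the ratios and single lambs named for other members were picked after their values were seen. Alternatives were pseudocounts of 0.1 and 5, no filter, a minimum mean of 5 TPM, median-of-ratios size factors computed on the TPM values, voom on recovered reads, robust eBayes, the lamb number as a block, each lamb left out and, chosen after seeing the data, removal of the trend with gene length.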

Additional observations from a re-analysis of the deposited data

Results flagged for a closer look

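Of 68 sets of 4 lambs, 1 per member and group, 5 held a lamb whose distance to its nearest neighbour passed Dixon's 95% critical value as a share of the group's whole range, and chance gives about 1 in 20. CTSH was highest in RES lamb 1 at 27.9 TPM, where the other RES lambs lay at 17.3 to 17.8 TPM, and lowest in ADL lamb 4 at 15.4 TPM, where the other ADL lambs lay at 22.1 to 22.7 TPM. CTSC was highest in ADL lamb 3 at 42.7 TPM. FUCA1 was highest in RES lamb 3 at 47.3 TPM. SGSH was highest in RES lamb 2 at 24.0 TPM.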

How the results depend on the processing

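In 17 alternatives 0 members passed an adjusted p under 0.05, and 18 of 34 kept their direction in all of them. CST3 had adjusted p between 0.328 and 0.685 across them. Genes called at an adjusted p under 0.05 numbered 1 with no filter on low values and 0 to 1 with 1 lamb left out, the 1 without ADL lamb 1. With size factors the median difference was -0.060 over all members, -0.038 over proteases and cystatins, -0.12 over the lipid and sulfate group and -0.0076 over membrane proteins. With voom these were -0.062, -0.039, -0.12 and -0.0079, and glycosidases had -0.038. With the length trend removed they were -0.038, -0.017, -0.092 and -0.031. Leaving out 1 lamb gave -0.17 to 0.043 for the lipid and sulfate group.

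Signs of small differences turned with the scaling. With size factors and with voom these were CTSA at -0.085 and -0.086, CTSZ at -0.019 and -0.018, TPP1 at -0.058 and -0.059, GLB1 at -0.062 and -0.064, MAN2B1 at -0.088 and -0.089, NAGLU at -0.0094 and -0.012, SMPD1 at -0.0034 and -0.0039, LAMP2 at -0.0076 and -0.0079, and CD63 at -0.092 and -0.092. With the length trend removed these were CTSA at -0.052, TPP1 at -0.073, GLB1 at -0.040, MAN2B1 at -0.082, LAMP2 at -0.036 and CD63 at -0.031. With 1 lamb left out, ranges crossed 0 for ARSB (-0.38 to 0.0033), ASAH1 (-0.17 to 0.13), CD63 (-0.035 to 0.048), CTSA (-0.063 to 0.17), CTSH (-0.21 to 0.0075), CTSL (-0.0096 to 1.17), GLB1 (-0.040 to 0.091), HEXA (-0.035 to 0.029), MAN2B1 (-0.044 to 0.12), NEU1 (-0.11 to 0.084), PSAP (-0.051 to 0.054) and TPP1 (-0.012 to 0.10). The cause was not tested.

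With the lamb number as a replicate block 0 genes were called, 4 members had an unadjusted p under 0.05, and CST3 had -0.52 (limma adjusted p = 0.44). Lambs of the same number had correlations of -0.12 to 0.15, and 4 of 8 correlated best with their own number. Correlations this weak cannot decide whether the numbers pair the lambs. Depth limits CSTB and CTSL most, since a member's reads per lamb ranged from 6 in CTSL to 17772.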
